A study of Mus musculus with 6 samples.

Results

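The data compared here are the RNA levels of MS-1 cells given a locked nucleic acid (LNA) inhibitor of miR-27 and of MS-1 cells given a negative-control LNA. MS-1 is an endothelial line derived from islets of the mouse pancreas and immortalised with SV40 large T antigen. An LNA inhibitor is a short modified antisense strand that binds a microRNA and blocks it. The 4 libraries used, of 6 in the series, are the miR-27 inhibitor without TGF-β2, the miR-27 inhibitor with 1 ng/ml TGF-β2, the negative control without TGF-β2 and the negative control with 1 ng/ml TGF-β2, all after 72 h. The remaining 2 libraries carry an inhibitor of miR-31 in the same TGF-β2 states. Each condition has 1 library, and nothing states that the libraries come from separate cultures. The p-values therefore set a difference against how far these libraries depart from a sum of an inhibitor effect and a TGF-β2 effect. That departure may be technical, and it is not a spread between replicates. Levels are FPKM, the fragments of a gene scaled to its length and to the library, and differences are of log2(FPKM + 1), which understates the fold of low genes. Genes were compared if they averaged 1 FPKM or more over the 6 libraries and had no 0 in the 4, which kept 11784 of 29955 names. Another 32 names reached the mean but had a 0. Zfp712, at a mean of 1.00 FPKM, was just inside that limit, and Zfp493, at a mean of 0.999 FPKM, was just outside it.

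MicroRNAs guide Argonaute proteins to messenger RNAs that pair with the seed, the bases near the 5′ end, and lower the stability and translation of those messages. An inhibitor that blocks a microRNA is therefore read from messages that carry its seed match. miR-27a and miR-27b come from separate clusters that each also encode a miR-23 and a miR-24, and in endothelial cells miR-27 is known for promoting sprouting and for targeting semaphorins that restrain it. Reported targets in various cells include Pparg, a nuclear receptor of lipid handling, Spry2, an inhibitor of growth factor signalling, and Elk1, a factor that competes with the MRTF coactivators for SRF at smooth muscle genes. TGF-β2 drives endothelial cells toward a mesenchymal state in which smooth muscle genes are made.

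The mature strands show what the inhibitor is directed against and what the search in messages used, with the seed, bases 2 to 8, in capitals (RefSeq, GRCm38.p6).
mmu-miR-27a-3p: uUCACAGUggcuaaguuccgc
mmu-miR-27b-3p: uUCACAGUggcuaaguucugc
mmu-miR-31-5p: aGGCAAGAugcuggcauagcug
The strands of miR-27a and miR-27b share the seed and differ at 1 of 21 bases, C19U counted from the 5′ end of miR-27a, so a seed match does not separate them. The miR-31 strand, the target of the other inhibitor, has another seed. The sequence of the inhibitor itself was not used here. The seed match searched in messages was ACTGTGA, on the message strand only, and ACTGTGAA for the 8-base form with an A opposite the first base of the microRNA.

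Matches in the 3′ UTRs of reported targets and of Rora are printed next, because these messages are the ones whose levels are followed below. The match is in capitals, with 11 bases on each side, from GENCODE vM21 on GRCm38.
Pparg: ctaagaaatttACTGTGAaaaagcattta
Plk2 match 1: gactcttttccACTGTGAgatcaacaggg
Plk2 match 2: gaagacttggaACTGTGAatacacttcct
Plk2 match 3: ttggctgcttaACTGTGAactatggccat
Spry2: taatatttgcaACTGTGAaaaaaaaacaa
Tab3 match 1: tatgcagacaaACTGTGAattccagagca
Elk1: ggcaaagattgACTGTGAgagaggcaaaa
Cdh5: aatttgaagcaACTGTGAattcacccagg
Rora match 3: atggttgacttACTGTGAacgacaatcca
The Pparg match lies at chr6:115490272-115490300 on the plus strand, 91 bases into a 3′ UTR of 207 bases. The Plk2 matches lie at chr13:110400273-110400301, chr13:110400551-110400579 and chr13:110400641-110400669 on the plus strand, all within a 3′ UTR of 623 bases. The Spry2 match lies at chr14:105892333-105892361 on the minus strand, the Tab3 match at chrX:85630907-85630935 on the plus strand, the Elk1 match at chrX:20934050-20934078 on the minus strand, the Cdh5 match at chr8:104143628-104143656 on the plus strand and the Rora match at chr9:69383499-69383527 on the plus strand. All of these but Plk2 match 1 and the Elk1 match have the 8-base form.

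The libraries held 11680 to 11791 names at 1 FPKM or more and the median log2 value of the genes compared was 3.74 to 3.77, and no fragment totals are given, so the depth behind a value is unknown. Of 9 endothelial markers, 8 were at 1 FPKM or more in all 4 libraries, with a sum of 1483 and 1560 FPKM with the miR-27 inhibitor without and with TGF-β2, against 1506 and 1529 FPKM with the negative control. Cldn5, the tight junction claudin of endothelium, was the exception, at under 0.1 FPKM in all 6. All 5 leukocyte markers and all 5 pancreas markers were under 1 FPKM in the 4 libraries, and Ptprc, Epcam and Pdx1 were at or near 0. Of 11 names on a longer leukocyte list, 9 were under 1 FPKM in all 6 libraries, but Cd68 was at 105 to 211 FPKM. Of 5 epithelial markers 3 were under 1 FPKM in the 4 libraries, but Krt18 was at 11.4 to 54.0 FPKM. Of 6 fibroblast and mural markers 4 were under 1 FPKM, but Pdgfra was at 1.86 to 19.3 FPKM. Mir27a and Mir27b were listed at 0 in all 6 libraries. A table of this kind does not measure mature microRNAs, so it holds no direct check of the inhibitor. The transcript 2010111I01Rik, which hosts the miR-27b cluster, was at 6.96 and 11 FPKM with the miR-27 inhibitor without and with TGF-β2, against 6.19 and 9.64 FPKM with the negative control.

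Differences between the miR-27 inhibitor and the negative control were small. Their median was 0.0067 without TGF-β2 and 0.0040 with it, and 95% of genes lay within 0.287 and 0.265 of 0. In the moderated linear model of limma over all 6 libraries, with inhibitor and TGF-β2 as terms, 0 genes were higher and 0 were lower at an adjusted p under 0.05 (0% of genes tested). The smallest adjusted p was 0.263. At an unadjusted p under 0.05 there were 1502 genes (12.7% of genes tested), of which 886 were higher (7.52%) and 616 lower (5.23%). With each library rescaled to an equal median the split was 736 higher and 762 lower, so the excess of higher genes depends on the scaling. A fit of the 4 libraries alone, which has 1 residual degree of freedom, placed 156 genes (1.32%) past an adjusted p of 0.05, 117 higher (0.993%) and 39 lower (0.331%), with fitted differences of 0.31 to 0.97 in size. Below, a gene is said to pass only in that 4-library fit.

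The 2 TGF-β2 states share no library, so they show how far the difference repeats. The sign was the same in both states for 68.5% of genes, 35.9% higher in both and 32.6% lower in both. Across genes, which are not independent replicates, the difference without TGF-β2 and that with it had a Pearson r of 0.358 and a Spearman rho of 0.505. Without TGF-β2, 7 genes were higher (0.0594%) and 9 lower (0.0764%) by 1 or more, and 67 higher (0.569%) and 39 lower (0.331%) by 0.5 or more. With TGF-β2, 7 were higher (0.0594%) and 7 lower (0.0594%) by 1 or more, and 53 higher (0.45%) and 39 lower (0.331%) by 0.5 or more. A difference of at least 0.5 in both states was seen for 15 genes that were higher (0.127%) and 9 that were lower (0.0764%).

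**Figure D1:**
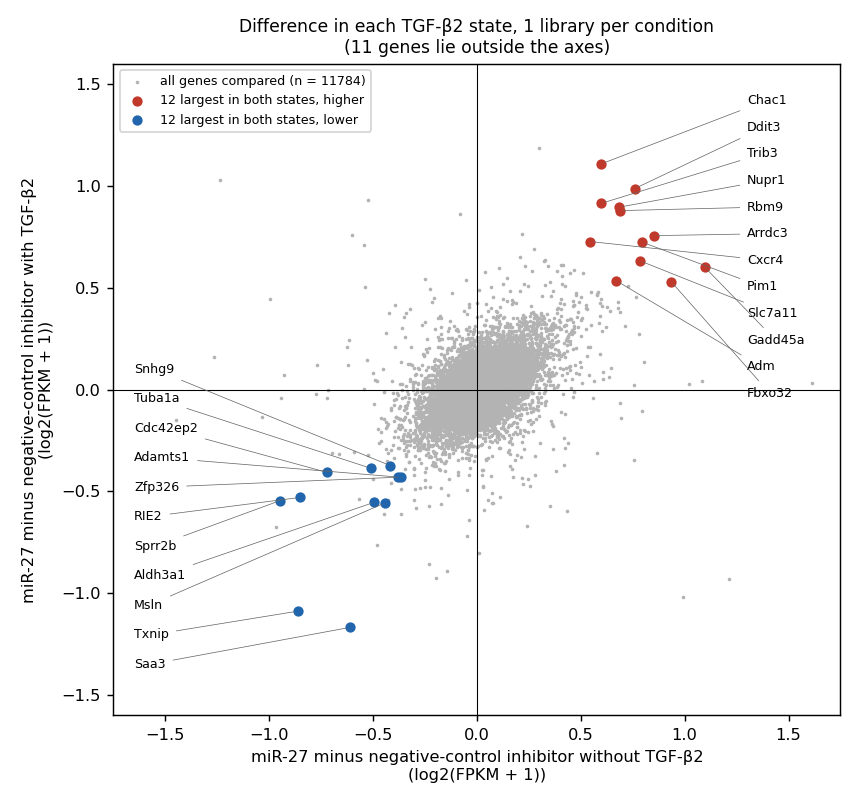
Difference of log2(FPKM + 1) between the miR-27 inhibitor and the negative control without TGF-β2 (x axis) and with it (y axis), 1 grey point per gene for 11784 genes; red and blue points are the 12 genes with the largest higher and the 12 with the largest lower difference in both states. Most genes sit near 0 on both axes, the labelled genes lie apart in the upper right and lower left, and 11 genes, NCX1 among them, lie outside the axes.

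The miR-31 inhibitor libraries are set beside these values for only some of the genes named. They are compared with the same negative-control libraries. A change that both inhibitors make and a negative control that itself stands apart therefore cannot be told apart in this design. In bulk RNA, fewer cells with a message and less message per cell cannot be told apart either. Genes above both other inhibitors in both states numbered 1145 (9.72%), and genes below both numbered 1124 (9.54%). By definition the 1145 are among the 4232 genes higher than the negative control in both states, and the 1124 among the 3839 lower. For genes already apart from the negative control in both states, the shares of all genes are therefore too low a base. Of the 117 genes that passed as higher, 28 lay beyond both other inhibitors, and of the 39 lower, 20 did. With the miR-31 inhibitor against the negative control, the 117 had medians of 0.38 without TGF-β2 and 0.49 with it. The 39 had medians of −0.30 and −0.37.

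Among the 12 genes highest in both states, Arrdc3, an arrestin-domain adaptor of receptor trafficking listed on mm9 at chromosome 13, 81022683 to 81035303, was at 21.8 and 26.4 FPKM with the miR-27 inhibitor without and with TGF-β2, against 11.6 and 15.2 FPKM with the negative control. Its differences were 0.85 and 0.76, and it passed with a fitted difference of 0.80 ± 0.05 (SE of the fit, limma adjusted p = 0.0273; adjusted p = 0.263 with 6 libraries). The levels with the miR-31 inhibitor were 19.0 and 26.2 FPKM, also above the negative control. Pim1, a growth-promoting serine/threonine kinase on chromosome 17, was at 44.6 and 39.4 FPKM with the miR-27 inhibitor, against 25.2 and 23.5 FPKM with the negative control, while the miR-31 inhibitor libraries held 43.1 and 33.4 FPKM. Fbxo32, the substrate-binding subunit of a ubiquitin ligase of muscle wasting, was at 6.78 and 12.1 FPKM with the miR-27 inhibitor, against 3.07 and 8.11 FPKM with the negative control. For all of these both miR-27 inhibitor values lay above the negative-control value of the same state, which the way they were picked required. Gadd45a, a growth arrest gene, was at 48.8 and 115 FPKM with the miR-27 inhibitor, against 22.3 and 75.2 FPKM with the negative control. Its difference was 1.10 without TGF-β2 and 0.60 with it, and the miR-31 inhibitor libraries held 41.4 and 211 FPKM.

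Genes of the integrated stress and unfolded protein responses held 10 of the genes that passed with 4 libraries. In these responses the translation factor eIF2α is phosphorylated, and the factors Atf4 and Ddit3 (CHOP) then switch on amino acid transporters and stress enzymes. Of 29 list members compared, 20 were higher in both states and 6 lower in both (35.9% and 32.6% of all genes). Their median difference was 0.16 without TGF-β2 and 0.25 with it, beside 0.0067 and 0.0040 over all genes. With 6 libraries 0 passed. With 4 libraries 10 passed, all higher (0.993% of all genes): Ddit3, Chac1, Nupr1, Trib3, Slc7a11, Atf4, Herpud1, Slc3a2, Ppp1r15a and Asns.

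Ddit3 was at 70.1 and 39.8 FPKM with the miR-27 inhibitor without and with TGF-β2, against 41.0 and 19.6 FPKM with the negative control. The Ddit3 level with the miR-31 inhibitor was 59.2 FPKM without TGF-β2 and 298 FPKM with it, by far the highest of the 6 libraries. In the 6-library fit, which holds that library, the fitted difference of Ddit3 was 0.87 ± 0.82 (limma adjusted p = 0.665), against 0.87 ± 0.07 (adjusted p = 0.0314) with 4 libraries. Without the negative control with TGF-β2 the fitted difference of Ddit3 was −0.018 and that of Chac1 −0.072. In that fit the TGF-β2 term comes from the miR-27 and miR-31 inhibitor libraries alone, so it too holds the library at 298 FPKM. The direct differences from the negative control without and with TGF-β2 were 0.76 and 0.99 for Ddit3, and 0.60 and 1.11 for Chac1. Atf4, the central factor of the response, was at 289 and 189 FPKM with the miR-27 inhibitor, against 221 and 126 FPKM with the negative control. Chac1, which breaks down glutathione, was at 49.3 and 16.4 FPKM with the miR-27 inhibitor, against 32.2 and 7.06 FPKM with the negative control. Trib3, a pseudokinase that feeds back on Atf4, was at 72.7 and 21.7 FPKM with the miR-27 inhibitor, against 47.7 and 11.1 FPKM with the negative control. For all 3 the order of the 2 inhibitors held in both states, which the way Chac1 and Trib3 were picked required. Nupr1, a small stress protein of chromatin, was at 116 and 131 FPKM with the miR-27 inhibitor, against 71.9 and 69.7 FPKM with the negative control. Slc7a11, the cystine transporter that supplies glutathione synthesis, was at 7.54 and 6.68 FPKM with the miR-27 inhibitor, against 3.96 and 3.96 FPKM with the negative control. Slc7a11 was also on a list of 19 NRF2 antioxidant genes, of which 12 were higher in both states and 2 lower in both (35.9% and 32.6% of all genes). With either rescaling of the libraries the lower count was 4. On that list Hmox1, which degrades haem, passed as well, at 74.4 and 65.9 FPKM with the miR-27 inhibitor, against 49.3 and 47.0 FPKM with the negative control. Without TGF-β2 the stress list also had a median of 0.14 with the miR-31 inhibitor against the negative control. With TGF-β2 that median was 1.09.

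Of 12 VEGF and sprouting genes, 8 were higher and 3 lower in both states (35.9% and 32.6% of all genes), with medians of 0.16 without TGF-β2 and 0.21 with it. With 4 libraries 4 passed as higher and 1 as lower (0.993% and 0.331% of all genes), and with 6 libraries 0 passed. Vegfa, the main endothelial growth factor, was at 12.5 and 20.5 FPKM with the miR-27 inhibitor without and with TGF-β2, against 7.46 and 13.9 FPKM with the negative control. Its fitted difference was 0.60 ± 0.06 over 6 libraries (limma adjusted p = 0.263), and it passed with 4 (adjusted p = 0.0332). The miR-31 inhibitor libraries were at 11.9 and 21.2 FPKM, so the negative control was lowest in each state. Angpt2, the Tie2 ligand that loosens vessels, was at 78.9 and 5.84 FPKM with the miR-27 inhibitor, against 48.9 and 4.08 FPKM with the negative control. Cxcr4, the chemokine receptor of tip cells, was at 6.41 and 5.57 FPKM with the miR-27 inhibitor, against 4.09 and 2.97 FPKM with the negative control. Kit, a receptor tyrosine kinase, was at 16.4 and 7.68 FPKM with the miR-27 inhibitor, against 12.6 and 5.31 FPKM with the negative control. These receptors and ligands were higher with the miR-27 inhibitor in both states. With the miR-31 inhibitor the differences from the negative control were 0.83 and 0.73 for Angpt2 without and with TGF-β2. They were 0.93 and 0.48 for Cxcr4, and 0.62 and 0.66 for Kit. With the miR-27 inhibitor they were 0.68 and 0.43 for Angpt2, 0.54 and 0.73 for Cxcr4, and 0.35 and 0.46 for Kit. Of these, only Cxcr4 with TGF-β2 differed more with the miR-27 inhibitor. The list medians with the miR-31 inhibitor were 0.26 and 0.17. Angptl4, a secreted inhibitor of lipoprotein lipase, was lower with the miR-27 inhibitor, at 36.3 and 56.3 FPKM, against 46.4 and 74.2 FPKM with the negative control.

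Vegfa is shared with the hypoxia and glycolysis list, of which 22 of 27 genes were higher in both states and 1 lower in both (35.9% and 32.6% of all genes), with medians of 0.12 and 0.14. On that list 0 passed with 6 libraries and 4 passed as higher with 4 (0.993% of all genes). There Adm, a vasodilator peptide, Ankrd37 and Ddit4, an inhibitor of mTORC1, passed beside Vegfa. Adm was at 42.9 and 27.2 FPKM with the miR-27 inhibitor, against 26.6 and 18.4 FPKM with the negative control, while the miR-31 inhibitor libraries held 39.7 and 24 FPKM. The neuropilin Nrp2, a receptor of VEGF and class 3 semaphorins, was the 1 of 32 endothelial identity genes that passed, at 91.6 and 73.7 FPKM with the miR-27 inhibitor, against 72.2 and 56.8 FPKM with the negative control. Among 11 semaphorins and plexins 0 passed, and Sema3c, a secreted semaphorin, was at 2.08 and 1.12 FPKM with the miR-27 inhibitor, against 2.66 and 1.65 FPKM with the negative control.

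**Figure D2:**
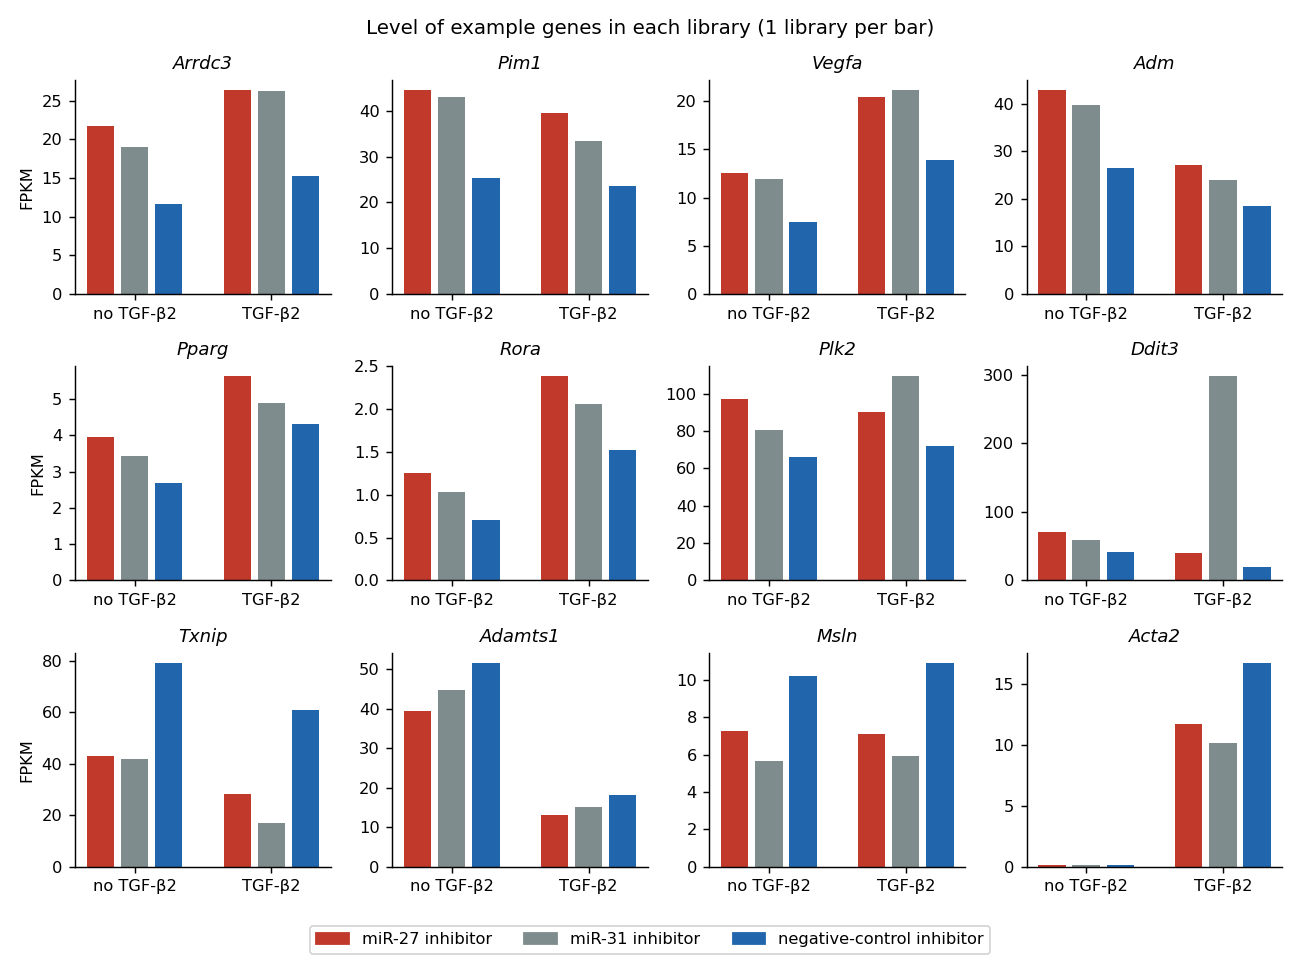
FPKM of 12 example genes in the 6 libraries, 1 bar per library, without TGF-β2 on the left of each panel and with it on the right. Red bars are the miR-27 inhibitor, grey the miR-31 inhibitor and blue the negative control. Arrdc3, Pim1, Vegfa and Adm have the blue bar lowest in both states, Txnip, Adamts1 and Msln have it highest, and Ddit3 is dominated by the miR-31 inhibitor with TGF-β2.

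Among the 12 genes lowest in both states, Txnip had the largest fitted difference after the name NCX1, −0.97 ± 0.07 with 4 libraries (limma adjusted p = 0.0273; adjusted p = 0.27 with 6 libraries). Txnip, which binds thioredoxin and restrains glucose uptake, is listed on mm9 at chromosome 3, 96359691 to 96370724. It was at 43.1 and 28.1 FPKM with the miR-27 inhibitor without and with TGF-β2, against 79.2 and 60.9 FPKM with the negative control, while the miR-31 inhibitor libraries held 41.9 and 16.9 FPKM. Among the 21 genes compared of the FoxO target list, Txnip was the only one that passed. It went against the list, of which 15 were higher and 4 lower in both states (35.9% and 32.6% of all genes). Fbxo32 and Gadd45a, which passed as higher, were not on that list. Saa3, an acute phase protein, was at 0.246 and 1.46 FPKM with the miR-27 inhibitor, against 0.904 and 4.53 FPKM with the negative control. Msln, the surface protein mesothelin, was at 7.25 and 7.10 FPKM with the miR-27 inhibitor, against 10.2 and 10.9 FPKM with the negative control. The Msln levels with the miR-31 inhibitor, 5.68 and 5.92 FPKM, were lower still. Adamts1, a secreted metalloprotease that cleaves matrix proteoglycans, was at 39.4 and 13.1 FPKM with the miR-27 inhibitor, against 51.5 and 18 FPKM with the negative control. Adamts1 was the only 1 of 27 matrix genes that passed (0.331% of all genes passed as lower), and its miR-31 inhibitor levels of 44.6 and 15 FPKM lay between the other inhibitors. Aldh3a1, an aldehyde dehydrogenase, Cdc42ep2, an effector of the small GTPase Cdc42, and Tuba1a, an α-tubulin with near-identical copies, also passed as lower, with differences of −0.39 to −0.72 in the 2 states. Ccl2 and Ccl7, chemokines that attract monocytes, passed as lower among 26 NF-κB and inflammatory genes (0.331% of all genes). Ccl2 was at 351 and 149 FPKM with the miR-27 inhibitor, against 432 and 196 FPKM with the negative control.

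Several of the names with large differences are second names at the place of another gene, and the values of the official names are given beside them. NCX1 was at 4.85 and 1.91 FPKM with the miR-27 inhibitor without and with TGF-β2, against 15 and 30.2 FPKM with the negative control, while Slc8a1, at the same listed place, was at 16.0 and 7.75 FPKM with the miR-27 inhibitor, against 14.9 and 7.82 FPKM with the negative control. Rbm9 was at 2.28 and 2.35 FPKM with the miR-27 inhibitor, against 1.04 and 0.824 FPKM with the negative control, while Rbfox2 at that place was at 25.9 and 32.6 FPKM with the miR-27 inhibitor, against 26.2 and 33.0 FPKM with the negative control. RIE2 was at 2.4 and 1.87 FPKM with the miR-27 inhibitor, against 5.15 and 3.15 FPKM with the negative control, while Rnf10 there was at 20.2 and 18.9 FPKM with the miR-27 inhibitor, against 19.4 and 17.4 FPKM with the negative control. Pop5, at the same listed place, was at 15.3 and 13 FPKM with the miR-27 inhibitor, against 16.3 and 14.4 FPKM with the negative control, lower in both states by less than RIE2. How the fragments of such a place were divided among its names is not given in the sources used here, so the values of these second names are uncertain.

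The reported targets of miR-27 were 42 symbols gathered from work in several tissues, of which 29 were compared. Their median difference was 0.027 without TGF-β2 and −0.0055 with it, 10 were higher in both states and 9 lower in both, which is 34.5% and 31.0% of them beside 35.9% and 32.6% of all genes. With 6 libraries 0 passed, and at an unadjusted p under 0.05 there were 7 higher and 0 lower (7.52% and 5.23% of all genes). Those 7 were Pparg, Plk2, Spry2, Tab3, Thrb, Nfe2l2 and Zbtb10. With 4 libraries Pparg was the only one that passed (limma adjusted p = 0.0459). Of the 29 targets, 21 had a seed match in the annotated 3′ UTR, and of these 9 were higher and 5 lower in both states (41.5% and 29.0% of all genes with a match). Of the 8 without one, 1 was higher and 4 were lower in both (35.3% and 33.4% of all genes without a match).

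Pparg, listed on mm9 at chromosome 6, 115311239 to 115440419, was at 3.95 and 5.62 FPKM with the miR-27 inhibitor without and with TGF-β2, against 2.68 and 4.32 FPKM with the negative control. It lay above the miR-31 inhibitor as well, which was at 3.42 and 4.88 FPKM. Its differences from the negative control were 0.43 and 0.32, with a fitted value of 0.37 ± 0.06. Plk2, a polo-like kinase with the 3 matches printed above, was at 97.2 and 90.1 FPKM with the miR-27 inhibitor, against 66.0 and 72.2 FPKM with the negative control. Its miR-31 inhibitor levels were 80.7 and 109 FPKM, so with TGF-β2 the miR-31 inhibitor was the higher of the inhibitors (limma adjusted p = 0.32 with 6 libraries and 0.0501 with 4). Spry2 was at 3.17 and 2.11 FPKM with the miR-27 inhibitor, against 2.29 and 1.79 FPKM with the negative control. Tab3, an adaptor of the kinase TAK1, was at 7.34 and 6.2 FPKM with the miR-27 inhibitor, against 5.69 and 5.50 FPKM with the negative control. Thrb, a thyroid hormone receptor, was at 2.84 and 1.46 FPKM with the miR-27 inhibitor, against 2.11 and 1.26 FPKM with the negative control. In Spry2, Tab3 and Thrb the difference was 0.31 to 0.34 without TGF-β2 and 0.13 to 0.15 with it.

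The reported targets Elk1, Cdh5, Ccng1 and Creb1 differed little, while Dll4 was lower without TGF-β2. Elk1 was at 10.1 and 9.57 FPKM with the miR-27 inhibitor, against 9.40 and 8.97 FPKM with the negative control, with a fitted difference of 0.09 ± 0.06 (limma adjusted p = 0.556). Cdh5, the VE-cadherin of endothelial junctions, was at 195 and 182 FPKM with the miR-27 inhibitor, against 180 and 167 FPKM with the negative control, and its values with the miR-31 inhibitor were 206 and 181 FPKM. Ccng1, an atypical cyclin, had a fitted difference of −0.02, and Creb1, a cAMP-responsive factor, one of 0.01. Dll4, the Notch ligand of tip cells, was at 3.73 and 0.621 FPKM with the miR-27 inhibitor, against 5.44 and 0.635 FPKM with the negative control, so its difference was −0.45 without TGF-β2 and −0.01 with it. Vegfc and Mstn were listed at 0 in all libraries.

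**Figure D3:**
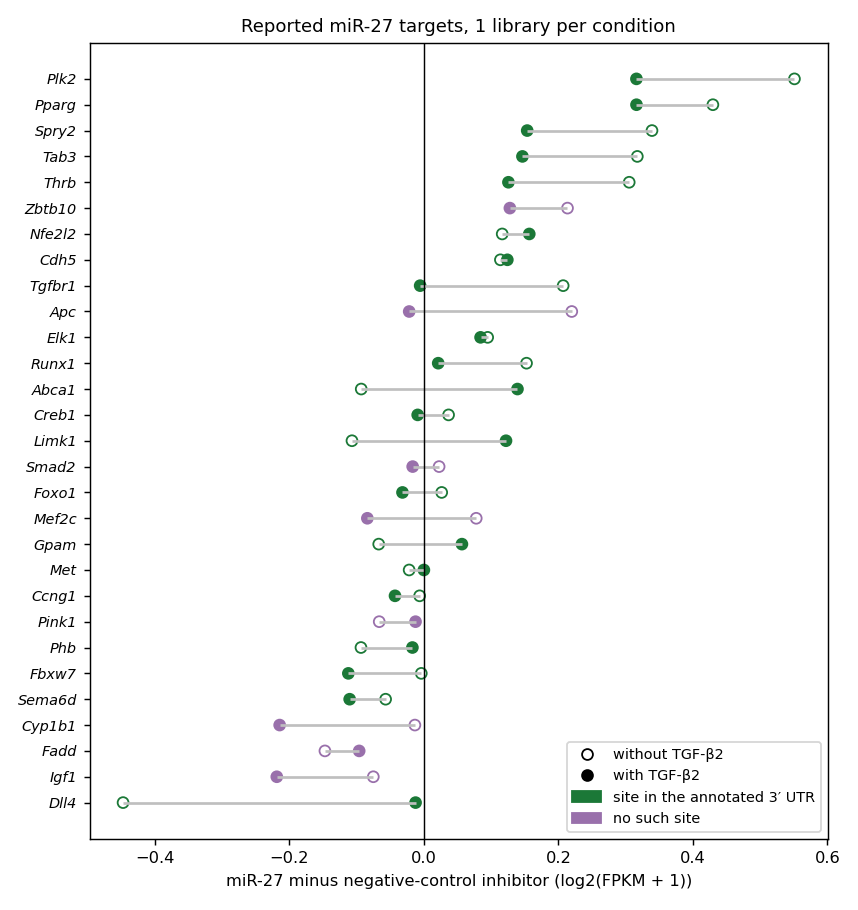
Difference of log2(FPKM + 1) between the miR-27 inhibitor and the negative control for the 29 reported targets compared, ordered by the fitted difference; open points are without TGF-β2 and filled points with it, green where the annotated 3′ UTR has a seed match and purple where it has none. Plk2 and Pparg are at the top with both points above 0.3, and most other targets lie within 0.2 of 0.

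Over all genes with an annotated 3′ UTR, 10657 in number, messages with a miR-27 match had slightly higher values. The 1884 genes with at least 1 match had a median fitted difference of 0.019, against 0.0030 for the 8773 genes with none, and 41.5% were higher in both states, against 35.3%. The median was 0.018 at 1 match, 0.029 at 2 and 0.050 at 3 or more, and 0.027 for the 681 genes with the 8-base form. These shifts are small beside the spread of genes, and matches of other microRNAs came with shifts of like sign. The median was 0.012 with a miR-31 match and 0.0046 without, 0.014 with a miR-23a match and 0.0036 without, and 0.0097 with a miR-24 match and 0.0048 without. At 1, 2 and 3 or more matches it was 0.012, 0.012 and 0.032 for miR-31. It was 0.012, 0.025 and 0.029 for miR-23a, and 0.0094, 0.0054 and 0.039 for miR-24. UTR length moved with the number of matches, from a median of 1007 bases at none to 4986 bases at 3 or more. Within 4 equal groups by UTR length, genes with a miR-27 match had medians of 0.013, 0.021, 0.015 and 0.023 from the shortest to the longest, against −0.0043, 0.00052, 0.0078 and 0.011 without. By state, the median with a match was 0.026 without TGF-β2 and 0.0097 with it, against 0.0021 and 0.0038 with none. With the miR-31 inhibitor against the same controls, genes with a miR-27 match had medians of 0.032 and 0.0052, against 0.013 and −0.0018 with none. At 3 or more miR-27 matches the medians were 0.063 and −0.0070 with the miR-31 inhibitor, against 0.051 and 0.015 with the miR-27 inhibitor.

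**Figure D4:**
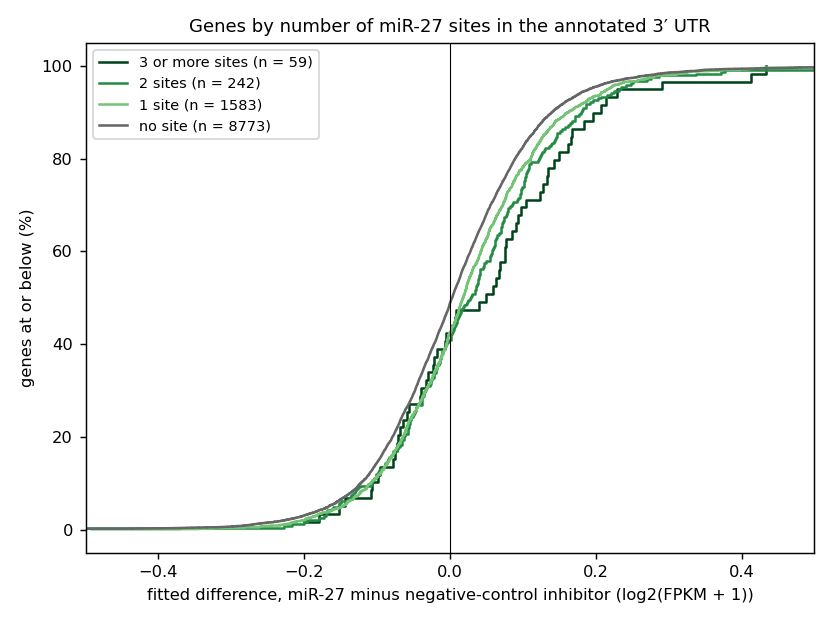
Share of genes (y axis, percent) with a fitted difference of log2(FPKM + 1), miR-27 inhibitor minus negative control, at or below the value on the x axis, by number of miR-27 seed matches in the annotated 3′ UTR. The curves for 1, 2 and 3 or more matches lie to the right of the curve for none, by a few hundredths at the median.

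Of the genes with official-type names, 52 had 3 or more matches, with fitted differences of −0.20 to 0.43. Rora, a nuclear receptor of the circadian clock and lipid metabolism, came next after Plk2. It was at 1.26 and 2.38 FPKM with the miR-27 inhibitor, against 0.709 and 1.52 FPKM with the negative control, while the miR-31 inhibitor libraries held 1.04 and 2.06 FPKM. Its differences were 0.40 and 0.42, and it passed with 4 libraries (limma adjusted p = 0.0356; adjusted p = 0.263 with 6 libraries). Ppm1k, a mitochondrial phosphatase, had a fitted difference of 0.29, Kalrn, a guanine nucleotide exchange factor, one of 0.23, and Pikfyve, a lipid kinase, one of 0.21. The number of matches did not order these genes, since Zfp26 with 8 had −0.01, Zbtb37 with 7 had 0.13 and Dclre1c with 3 had −0.20.

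Smooth muscle genes, which TGF-β2 is known to switch on in endothelial cells, differed little between the miR-27 inhibitor and the negative control. Of 26 genes 18 were compared, and 2 were higher and 10 lower in both states (35.9% and 32.6% of all genes), with medians of −0.058 without TGF-β2 and −0.034 with it. With either rescaling the higher count was 1. None passed in either fit. Acta2, the smooth muscle actin, was at 0.158 and 11.7 FPKM with the miR-27 inhibitor without and with TGF-β2, against 0.134 and 16.7 FPKM with the negative control. With TGF-β2 its difference was −0.48, the fitted difference was −0.22 over 6 libraries and 0.063 without the negative control with TGF-β2, and the miR-31 inhibitor library was at 10.2 FPKM. Tagln, a calponin-like actin binder under the limit for comparison, was at 0.189 and 0.473 FPKM with the miR-27 inhibitor, against 0.312 and 0.608 FPKM with the negative control. Tnnt2, a troponin, was at 2.88 and 101 FPKM with the miR-27 inhibitor, against 3.11 and 100 FPKM with the negative control. Tpm1, a tropomyosin, was at 163 and 744 FPKM with the miR-27 inhibitor, against 166 and 773 FPKM with the negative control. Acta2, Tnnt2 and Tpm1 were higher with TGF-β2 than without it in the miR-27 inhibitor and the negative-control libraries alike. Of the markers of fibroblasts and mural cells, Rgs5, Lum, Dpt and Cspg4 were at or near 0, while Pdgfra was at 2.51 and 18.2 FPKM with the miR-27 inhibitor, against 1.86 and 19.3 FPKM with the negative control.

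The TGF-β and Smad list had 3 of 29 members that passed as higher and 1 as lower with 4 libraries (0.993% and 0.331% of all genes). Tgfbr3, the co-receptor betaglycan that presents TGF-β2, was at 5.91 and 3.59 FPKM with the miR-27 inhibitor, against 3.86 and 2.60 FPKM with the negative control. Tgif1, a Smad corepressor, was at 88.0 and 51.6 FPKM with the miR-27 inhibitor, against 62.5 and 41.4 FPKM with the negative control. Smurf1, a ubiquitin ligase of Smads and receptors, was at 66.7 and 56.5 FPKM with the miR-27 inhibitor, against 53.6 and 44.2 FPKM with the negative control. Klf10, an early TGF-β gene, was at 27.9 and 33.3 FPKM with the miR-27 inhibitor, against 37.5 and 41.1 FPKM with the negative control. The differences of these 4 genes were 0.30 to 0.51 in size, and all 4 had a limma adjusted p of 0.263 with 6 libraries. All 4 also differed from the negative control in the same direction with the miR-31 inhibitor. Without and with TGF-β2 those differences were 0.44 and 0.20 for Tgfbr3 and 0.45 and 0.44 for Tgif1. They were 0.25 and 0.34 for Smurf1, and −0.29 and −0.25 for Klf10.

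The response to TGF-β2 was larger by at least 1 with the miR-27 inhibitor than with the negative control for 14 genes (0.119%) and smaller for 11 (0.0933%). These have no test, since the design leaves no spare library. Ptgs2, the inducible cyclooxygenase, was at 9.17 and 3.83 FPKM with the miR-27 inhibitor without and with TGF-β2, against 4.85 and 4.20 FPKM with the negative control, and its response was lower by 0.90. Pspn, the neurotrophic ligand persephin, was at 0.602 and 6.97 FPKM with the miR-27 inhibitor, against 0.591 and 12.9 FPKM with the negative control. Its miR-31 inhibitor levels, 0.503 and 6.89 FPKM, were close to those of the miR-27 inhibitor. Smyd2, a lysine methyltransferase, was at 120 and 27.5 FPKM with the miR-27 inhibitor, against 38.7 and 26.9 FPKM with the negative control, so that a single library stood apart. Commd4 was at 21.8 and 22.4 FPKM with the miR-27 inhibitor, against 53.9 and 20.0 FPKM with the negative control, with no difference of that size in the state with TGF-β2. Tradd, an adaptor of the TNF receptor, was at 22 and 13.6 FPKM with the miR-27 inhibitor, against 14.4 and 17.1 FPKM with the negative control. Also picked by the size of this difference were hnRNP_A2/B1 and IL15ra, which are second names at the places of Hnrnpa2b1 and Il15ra.

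Ribosomal protein genes were the most uniform list. All 47 compared were higher in both states, beside 35.9% of all genes, with medians of 0.092 without TGF-β2 and 0.099 with it, and the count was 47 under both rescalings tried. None passed in either fit, and 10, all higher, were at an unadjusted p under 0.05 with 6 libraries (7.52% of all genes). With the miR-31 inhibitor against the same controls their medians were 0.075 and 0.033. Rpl27, a protein of the large subunit, was at 1034 and 947 FPKM with the miR-27 inhibitor, against 859 and 820 FPKM with the negative control. Many of these genes have processed pseudogene copies, which makes the split of fragments uncertain. Of 37 proliferation genes 27 were lower and 4 higher in both states (32.6% and 35.9% of all genes), with medians of −0.070 and −0.071, and 0 passed in either fit. Ccne1, cyclin E1 of S phase entry, was at 12 and 12.7 FPKM with the miR-27 inhibitor, against 14.9 and 15.8 FPKM with the negative control, and Mki67 was among the 4 exceptions, at 124 and 120 FPKM with the miR-27 inhibitor, against 111 and 112 FPKM with the negative control. Of 38 oxidative phosphorylation genes 21 were lower and 9 higher in both states, and of 27 cholesterol synthesis genes 14 were lower and 4 higher (32.6% and 35.9% of all genes), with 0 past the threshold in either fit. Myc, among 16 genes of Sprouty and ERK feedback, passed as higher with 4 libraries, at 13.2 and 9.03 FPKM with the miR-27 inhibitor, against 8.88 and 6.53 FPKM with the negative control. Gdf15, a stress cytokine and p53 target, passed as higher too, at 99.1 and 29.6 FPKM with the miR-27 inhibitor, against 70.9 and 21.2 FPKM with the negative control. Among markers of other cell types, Krt18, a keratin of simple epithelium, and Cd68, a lysosomal protein of macrophages, passed as higher. Krt18 was at 54 and 15.8 FPKM with the miR-27 inhibitor, against 38.2 and 11.4 FPKM with the negative control, and its partner keratin Krt8 was under 1 FPKM in all 6 libraries. Cd68 was at 211 and 135 FPKM with the miR-27 inhibitor, against 169 and 105 FPKM with the negative control.

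**Figure D5:**
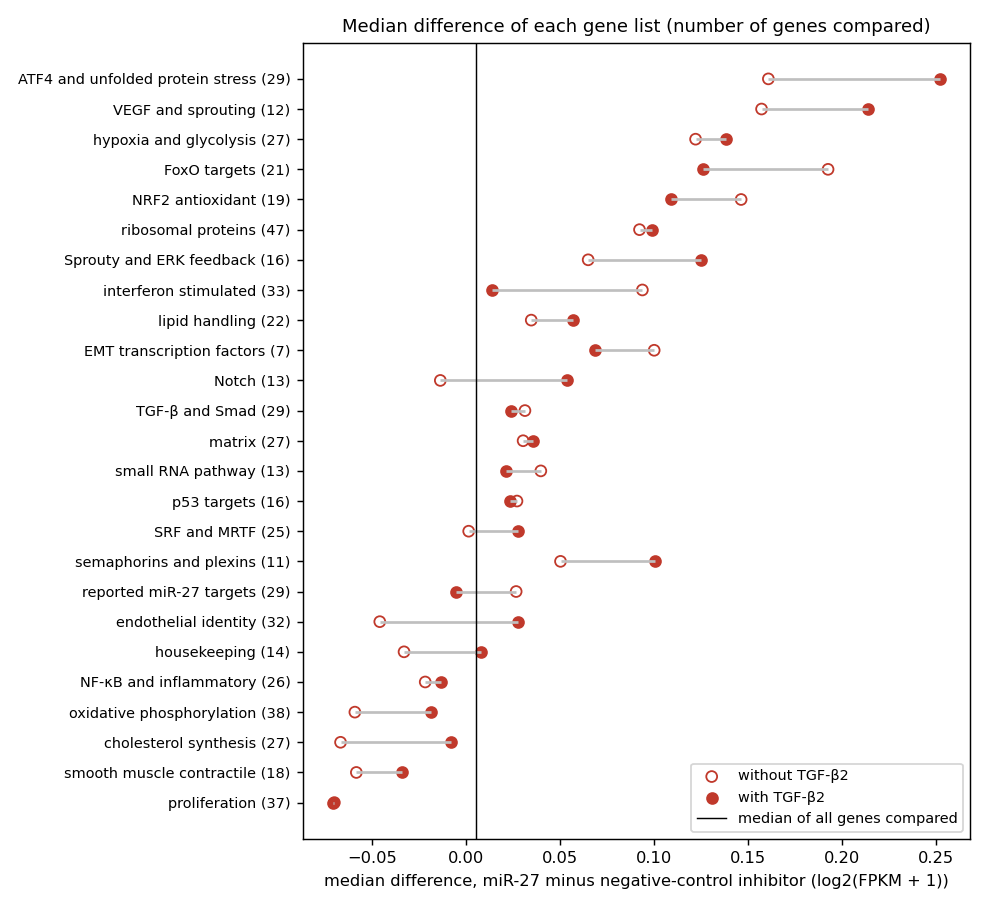
Median difference of log2(FPKM + 1), miR-27 inhibitor minus negative control, of each gene list with at least 5 genes compared (number in brackets); open points are without TGF-β2, filled points with it, and the line is the median of all genes. Ordered by the median over both states, the stress list is highest, at 0.16 and 0.25, and the proliferation list lowest, at −0.070 and −0.071.

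Genes at which the miR-27 inhibitor lay above or below both other inhibitors in both states were picked after their values were seen. Gfpt2, an enzyme of the hexosamine pathway, was at 6.45 and 5.92 FPKM with the miR-27 inhibitor without and with TGF-β2, against 5.12 and 4.71 FPKM with the negative control, while the miR-31 inhibitor libraries held 5.31 and 5.20 FPKM. Clec2d, a lectin-like ligand of natural killer cell receptors, was at 57.6 and 68.2 FPKM with the miR-27 inhibitor, against 35.3 and 52.2 FPKM with the negative control, while the miR-31 inhibitor libraries held 47.8 and 43.4 FPKM. In both, the miR-27 inhibitor library was the highest in each state, which the way they were picked required. Sec14l2, a lipid-binding protein, was at 2.93 and 5.45 FPKM with the miR-27 inhibitor, against 4.19 and 7.14 FPKM with the negative control, while the miR-31 inhibitor libraries held 3.53 and 6.45 FPKM. Kank3, a cytoskeletal adaptor of endothelium, was at 17.7 and 9.96 FPKM with the miR-27 inhibitor, against 20.5 and 11.5 FPKM with the negative control, while the miR-31 inhibitor libraries held 20.9 and 12 FPKM. The other names chosen this way were SH3d19, Zfp185, Ccdc136 and Pparg above, and Clasrp, F2rl3 and Prrg2 below, with HELG, Awp1, Elm1, NCX1 and RIE2 as second names. Clasrp, with differences of −0.34 and −0.23, shares its listed place with ClaspL and Sfrs16, so its values are uncertain too. ClaspL went the other way, at 0.31 and 0.25, as did Sfrs16, at 0.29 and 0.32.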

How the data were processed

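The authors deposited 1 table of FPKM values for 6 libraries. The tools TopHat2 2.0.9 and Cufflinks 2.1.1 and the build mm9 are named per the submitters' processing notes, and the annotation and options are not given in the sources used here. FPKM divides by mapped fragments, so a change in abundant RNAs moves all other values. The table gives no fragment totals. A name listed at 0 may be a failed estimate, since Eef1a1 is listed at 0 in all 6 libraries. Places are printed counting from 1, since starts in the table count from 0.

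Values were analysed as log2(FPKM + 1) with limma 3.58.1 in R 4.3.3, as a 2-sided test moderated without trend or robust fitting, adjusted by Benjamini-Hochberg over 11784 genes. The model had inhibitor (3 levels) and TGF-β2 (2 levels) as terms, 2 residual degrees of freedom and a prior of 3.22. The 4-library fit had 1 and a prior of 4.90. The code was tested on simulated data. Seed matches were counted in the longest annotated 3′ UTR of GENCODE vM21. Of the genes, 9534 matched by symbol and 1123 by RefSeq synonym.

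The members and the 30 gene lists were chosen with earlier results of these data known. Named genes were the 12 higher and 12 lower genes ranked by the smaller of their differences where both states had 1 sign, the 6 and 6 with the largest difference in response, reported targets, smooth muscle genes, the 4 largest differences of each other list, and genes with 3 or more matches. Unnamed models, histones, short RNAs and joined names were skipped. The 8 genes above and 8 below both other inhibitors, the members of lists named because they passed with 4 libraries or for contrast, marker genes, official names beside second names and the plotted examples were chosen after values were seen.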

Additional observations from a re-analysis of the deposited data

Results flagged for a closer look

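For 5 genes the difference between the miR-27 inhibitor and the negative control had opposite signs in the 2 TGF-β2 states, each at least 0.5 in size. With 1 library per condition the difference between states was not tested. Lars2, the mitochondrial leucyl-tRNA synthetase, was at 5.27 and 23.0 FPKM with the miR-27 inhibitor without and with TGF-β2, against 13.0 and 5.56 FPKM with the negative control, so the responses differed by 3.03. R3hdm2 was at 43.3 and 4.21 FPKM with the miR-27 inhibitor, against 15.7 and 22.1 FPKM with the negative control, a difference in response of −3.56. Sgo1, which is listed beside its older name Sgol1, was at 1.88 and 4.87 FPKM with the miR-27 inhibitor, against 3.23 and 0.893 FPKM with the negative control, a difference of 2.18. Sgol1, the name with more signal, was at 16.2 and 13.2 FPKM with the miR-27 inhibitor, against 16.0 and 13.8 FPKM with the negative control. Dynlt1c, a dynein light chain with near-identical copies, was at 1.84 and 5.26 FPKM with the miR-27 inhibitor, against 3.30 and 2.70 FPKM with the negative control, a difference of 1.36. The name aprt, at the place of Aprt, was at 1.83 and 2.03 FPKM with the miR-27 inhibitor, against 3.12 and 1.14 FPKM with the negative control, a difference of 1.04.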

How the results depend on the processing

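With 4 libraries, 117 genes were higher and 39 lower at an adjusted p under 0.05, and 1510 and 1122 at an unadjusted p, and the cause of the rise over 6 libraries was not tested. Leaving out either miR-31 inhibitor library gives the same fit by construction. Over the 6 fits that leave out 1 library, adjusted counts ran from 0 to 117 higher and 0 to 39 lower, and unadjusted counts from 309 to 1510 and 209 to 1122. Without the negative control with TGF-β2 the adjusted counts were 1 and 3. Keeping names listed at 0 gave 1 lower gene, Mir763, and no minimum on the mean gave 980 lower at an unadjusted p. Of 48 named genes followed, 35 passed with 4 libraries, and 3 turned sign without the negative control with TGF-β2: Ddit3 at −0.018, Chac1 at −0.072 and Acta2 at 0.063. Leaving out 1 library at a time, their ranges were −0.018 to 1.77 for Ddit3, −0.072 to 1.78 for Chac1 and −0.51 to 0.063 for Acta2. Without the negative control with TGF-β2, the TGF-β2 term comes from the miR-27 and miR-31 inhibitor libraries alone. With a pseudocount of 0.1, 12 genes were higher and 19 lower by 1 or more without TGF-β2, 13 were higher with it, and 28 responses were larger and 25 smaller. At a mean of at least 5 FPKM, 4 were higher with TGF-β2 and 9 responses were larger. The median of genes with a match was above that without by 0.016, and by 0.013 to 0.022 under the 3 alternatives. Rescaling moved the median of all genes from 0.0052 to −0.0073 or −0.0034, and its use on the lists was chosen after seeing the data. The count in the more frequent direction stayed within 1.5 times for the 10 lists followed. In the less frequent direction the NRF2 list had 4 lower genes in place of 2, and the smooth muscle list 1 higher in place of 2, under both rescalings, and the NF-κB list 3 higher in place of 5 under the median rescaling. Every fit was paired by TGF-β2 state. The labels give no replicate numbers, so none could be used as a block. Unknown depth limits low genes most.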
